A study of Homo sapiens with 2 samples.

Results

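Integrins and laminins are the receptors and the matrix proteins by which epithelial cells hold on to the basement membrane. Of the 50867 gene rows in the deposited table, 38 had a symbol of an integrin alpha or beta subunit or of a laminin chain, and these 38 are described here. They comprised 18 integrin alpha subunits, 8 integrin beta subunits, 5 laminin alpha chains, 4 laminin beta chains and 3 laminin gamma chains. Membership was set by gene symbol. RNA was sequenced from HCT116, an established human colorectal carcinoma line, in 2 groups of 1 library each: cells transfected with an siRNA against PHF5A, and cells transfected with a control siRNA. PHF5A is a subunit of SF3b, which recognises the intron's branch point during splicing, and the study asked which transcripts depend on it. The labels give neither the siRNA sequence nor the time after transfection, and loss of PHF5A and other effects of its siRNA cannot be told apart. Each group being a single library, the differences below are sizes without a replicate check, and p-values are not given.

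An integrin is a pair of 1 alpha and 1 beta subunit that spans the plasma membrane, binds matrix outside the cell and is joined through adaptor proteins to actin or, for ITGB4, to keratin filaments. A laminin is a trimer of 1 alpha, 1 beta and 1 gamma chain that is secreted and polymerises into the basement membrane sheet under epithelium, muscle and vessels. In the intestine the epithelium rests on laminins that contain LAMA5 and on an anchoring laminin that contains LAMA3 and LAMB3. Its main laminin receptors are ITGA3 with ITGB1 and ITGA6 with ITGB4, and ITGA6 with ITGB4 forms the core of the hemidesmosome.

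The knockdown library held 25897412 counts and the control library 26552789, of which 70.2% and 78.4% fell on protein-coding genes. PHF5A had 91 counts in the knockdown library and 367 in the control library, a ratio of 0.254 after scaling to the library total (95% counting interval 0.200 to 0.321). Of 12 markers of colon epithelium, 6 reached 1 FPKM (fragments per kilobase of gene length, scaled to the library total) in the higher library: KRT8, KRT18, KRT19, EPCAM, CDH1 and CDX2. The other markers, VIL1, KRT20, CDX1, CDH17, LGR5 and CEACAM5, had 0 to 6 counts in either library. RNA of heart muscle was present in the control library: 20 heart muscle markers summed to 341 counts in the knockdown library and 102209 in the control library, and 11 of them were at 0 in the knockdown library and none in the control library. Values of these markers are given below beside the members that moved with them. In bulk RNA, fewer cells of a type and less RNA per cell cannot be told apart.

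Most expressed integrin and laminin genes were lower in the knockdown library, which also held less heart muscle RNA; its part in the members' values was not tested. Of the 38, 17 reached 1 FPKM in the higher library and are called expressed here. Their log2 ratios of knockdown to control, computed after adding 1 to each FPKM, ranged from -1.48 for LAMA2 to 0.15 for LAMB3, with a median of -0.66. The median of all 8957 expressed genes was -0.15. At least 2-fold lower were 4 members, ITGB4, ITGA3, LAMC1 and LAMA2, against 6.20% of all expressed genes. After median centring, upper-quartile scaling or scaling to the protein-coding total, ITGA3 and LAMA2 kept this call and ITGB4 and LAMC1 lost it. No member was at least 2-fold higher, against 2.53% of all expressed genes. Adding 1 to each FPKM understates the change of low genes, and 8 of the 17 had a ratio of counts scaled to the library total (CPM) of 0.5 or less, against 13.9% of all expressed genes. None of the 17 had a CPM ratio of 2 or more, against 5.72% of all expressed genes. These shares describe the pair of libraries and say nothing of variation between cultures. LAMA2, ITGAV and ITGA7 reached 1 FPKM in the control library alone, so they passed the filter only through it and could count only as lower.

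The direction was shared by nearly all expressed members. Of the 17, 16 had a log2 ratio below 0, against 62.0% of all expressed genes, and LAMB3 was above 0. The scale affected this count: 15 were below 0 after centring on the median, upper-quartile scaling or scaling to the protein-coding total, where ITGA2 was also above 0, and all 18 members that passed were below 0 after rescaling each library to an equal sum (TPM). Set against the median of the expressed genes, 15 of the 17 lay below it and LAMB3 and ITGA2 above it. LAMB3 and ITGA2 were also the only expressed members above it after upper-quartile scaling, TPM rescaling or scaling to the protein-coding total. The 95% counting interval of the CPM ratio lay below 1 for 15 of the 17 and above 1 for LAMB3, while that of ITGA2 included 1. Among all expressed genes the interval lay below 1 for 50.7% and above 1 for 28.4%, so at this depth an interval that excludes 1 is common. These intervals cover counting error only.

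**Figure D1:**
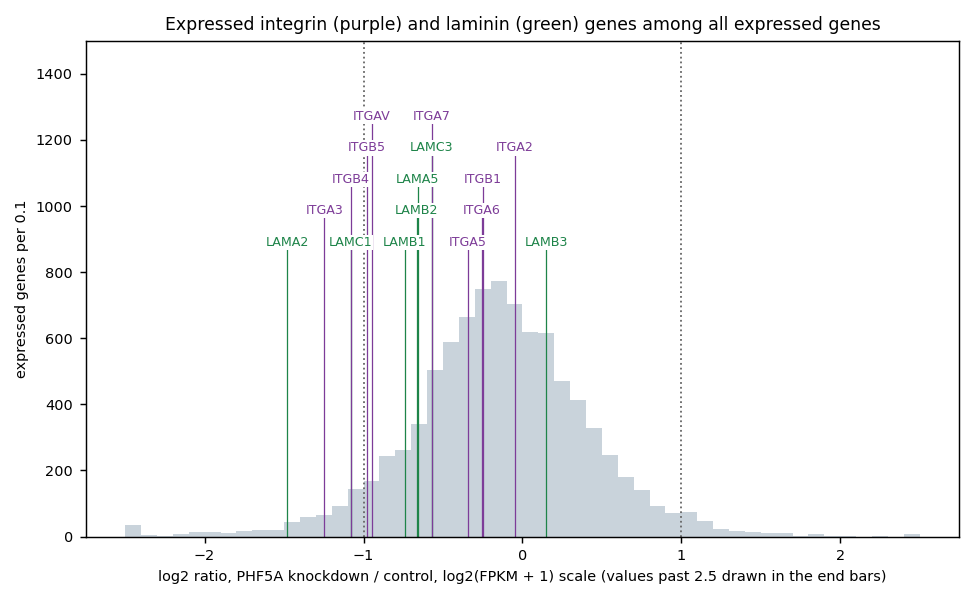
Histogram of the log2 ratio of PHF5A knockdown to control on the log2(FPKM + 1) scale for all 8957 expressed genes, in bins of 0.1, with 16 of the 17 expressed integrin genes (purple) and laminin genes (green) marked. Dotted lines stand at 2-fold; LAMA2, ITGA3, LAMC1 and ITGB4 lie beyond the lower one, and LAMB3 is the only member above 0.

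Integrin alpha subunits choose the ligand. ITGA3, which with ITGB1 binds the laminins of epithelium, had the highest level of them, with 23.2 FPKM in the knockdown library and 56.6 FPKM in the control library (10068 and 25122 counts). It was 2.43-fold lower by CPM (interval 2.38 to 2.49). By FPKM it ranked 1056th of all genes in the knockdown library and 462nd in the control library. Its gene (ENSG00000005884) lies on chromosome 17, 50055968 to 50090481 (GRCh38).

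ITGAV, the alpha subunit of receptors for fibronectin and vitronectin, had 0.928 FPKM in the knockdown library and 2.72 FPKM in the control library, from 326 and 981 counts. It was 2.93-fold lower by CPM (interval 2.59 to 3.34), although its log2 ratio of -0.95 was just short of 2-fold on the FPKM + 1 scale. ITGA7, the laminin receptor subunit of striated muscle, had 0.903 FPKM in the knockdown library and 1.82 FPKM in the control library, 2.02-fold lower by CPM (interval 1.76 to 2.32). The 20 heart muscle markers, with 341 counts in the knockdown library and 102209 in the control library, were low in the same library, and their part in the ITGA7 value was not tested. The ITGA7 locus overlaps METTL7B and BLOC1S1 on the other strand, and whether the authors counted by strand is not stated in the labels.

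The remaining expressed alpha subunits differed less. ITGA5, the fibronectin receptor subunit, had 13.6 FPKM in the knockdown library and 17.5 FPKM in the control library, 1.29-fold lower (interval 1.24 to 1.34). ITGA6, the partner of ITGB4, had 2.98 FPKM in the knockdown library and 3.75 FPKM in the control library, 1.26-fold lower (interval 1.15 to 1.38). ITGA2, a collagen receptor subunit, had 3.49 FPKM in the knockdown library and 3.64 FPKM in the control library, with a CPM ratio of 0.960 (interval 0.871 to 1.06) that counting error alone could give. ITGA3 made up 49.96% of the summed FPKM of the 18 alpha subunits in the knockdown library and 63.8% in the control library, while ITGA5 made up 29.2% and ITGA2 7.51% in the knockdown library, against 19.7% and 4.11% in the control library.

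Of the beta subunits, ITGB4 stood far above the others. ITGB4, whose long cytoplasmic tail joins the hemidesmosome to keratins, had 67.5 FPKM in the knockdown library and 143.6 FPKM in the control library, from 17604 and 38422 counts. It was 2.13-fold lower by CPM (interval 2.09 to 2.17) and made up 83.7% of the summed beta-subunit FPKM in the knockdown library and 85.7% in the control library. By FPKM it ranked 383rd of all genes in the knockdown library and 201st in the control library. The gene (ENSG00000132470; chromosome 17, 75721328 to 75757818) overlaps GALK1 on the other strand, which had 3874 counts in the knockdown library and 3850 in the control library.

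ITGB5, the vitronectin receptor subunit that pairs with ITGAV, had 9.0 FPKM in the knockdown library and 18.7 FPKM in the control library, from 2146 and 4582 counts. It was 2.08-fold lower by CPM (interval 1.98 to 2.19), and its log2 ratio of -0.98 lay just inside the 2-fold line. ITGB1, the most widely shared beta subunit, had 3.91 FPKM in the knockdown library and 4.84 FPKM in the control library, 1.24-fold lower (interval 1.14 to 1.34). Reads of ITGB1 may be shared with its pseudogene ITGB1P1, which had 159 counts in the knockdown library and 133 in the control library. Summed over both entries, ITGB1 had 1235 counts in the knockdown library and 1500 in the control library, 1.18-fold lower (interval 1.10 to 1.28).

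Some subunits that pair with each other were not equally low, and others, such as ITGA5 and ITGA6 with ITGB1, nearly were. FPKM is per gene length, so levels of partners can be set side by side, though FPKM uses 1 fixed length per gene whatever isoform is made. ITGB4 had 22.6 times the FPKM of its partner ITGA6 in the knockdown library and 38.3 times in the control library. The level of ITGA3 was 5.95 times that of ITGB1 in the knockdown library and 11.7 times in the control library, whereas ITGA5 stood at 3.47 times ITGB1 in the knockdown library and 3.61 times in the control library. In the same order, ITGA6 stood at 0.763 and 0.774 times ITGB1, ITGA2 at 0.894 and 0.752, and ITGAV at 0.238 and 0.563. Ratios to ITGB1 leave out the counts of ITGB1P1, 159 in the knockdown library and 133 in the control library. ITGB5 had 9.70 times the FPKM of ITGAV in the knockdown library and 6.88 times in the control library. ITGB4 and ITGA3, the high subunits of the laminin receptors, were lower relative to their partners in the knockdown library, and ITGAV, the low subunit of its pair, was lower relative to ITGB5.

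**Figure D2:**
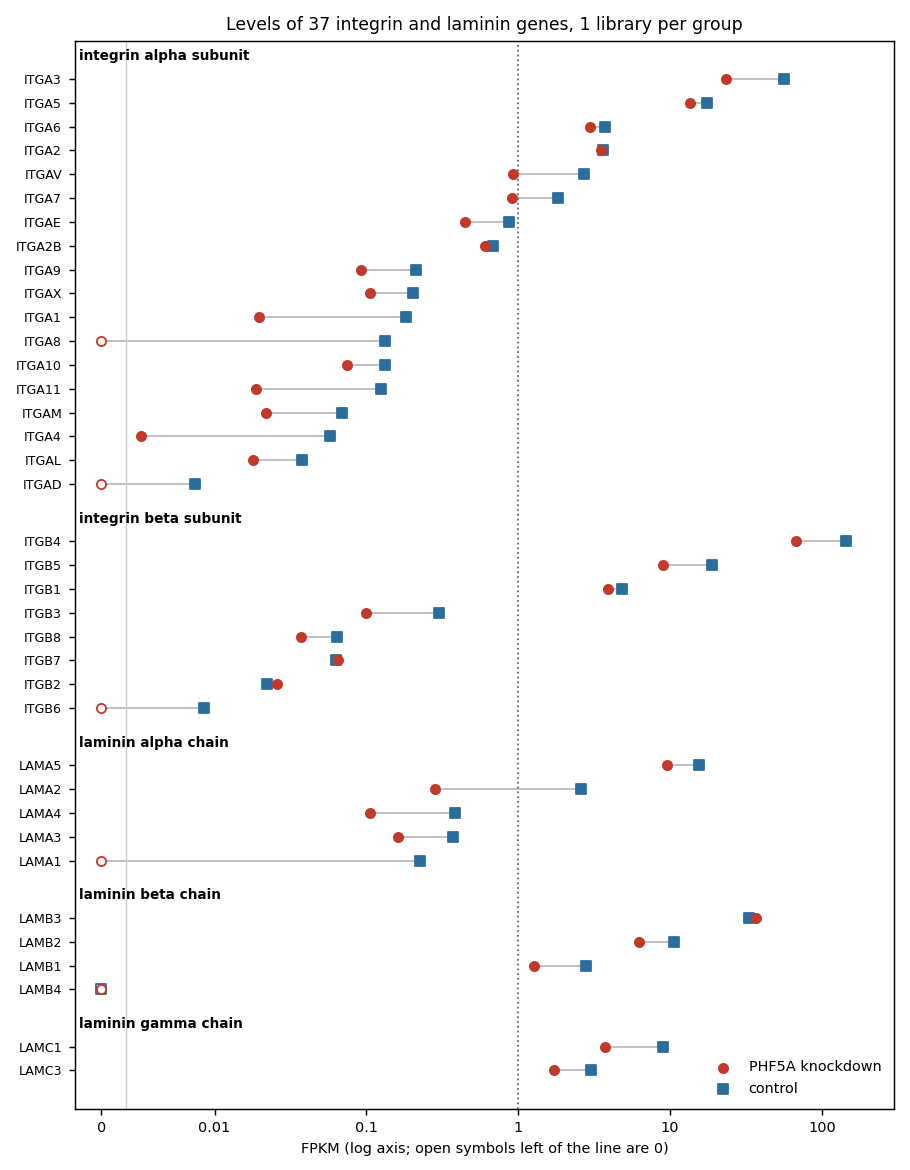
FPKM (log axis) of 37 members by role, with the PHF5A knockdown library as red circles and the control library as blue squares; the dotted line stands at 1 FPKM and open symbols at the left edge are 0. ITGB4 and ITGA3 are the highest members in the control library, and LAMB3 and ITGB4 are the pair of highest members in the knockdown library, at 36.5 and 67.5 FPKM.

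Laminin alpha chains carry the domains that integrins bind. LAMA5, the chain of most adult epithelial basement membranes, had 9.50 FPKM in the knockdown library and 15.6 FPKM in the control library, from 4395 and 7396 counts. It was 1.64-fold lower by CPM (interval 1.58 to 1.70). Its locus overlaps ADRM1 on the other strand, which was higher instead, with 16116 counts in the knockdown library and 11787 in the control library.

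LAMA2, the alpha chain of the muscle basement membrane, had the lowest ratio of the expressed members. It had 0.281 FPKM in the knockdown library and 2.58 FPKM in the control library, from 82 and 770 counts, and was 9.16-fold lower by CPM (interval 7.29 to 11.6). The gene (ENSG00000196569) lies on chromosome 6, 128883141 to 129516569. LAMA2 and the 20 heart muscle markers were low in the same library, the marker sum being 0.00342 of the control by CPM and LAMA2 0.109, and the part of heart muscle RNA in the LAMA2 value was not tested. LAMA5 made up 94.6% of the summed laminin alpha FPKM in the knockdown library and 81.4% in the control library, and LAMA2 made up 2.80% and 13.4%.

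Among the beta chains, LAMB3 went the other way from the rest. LAMB3, the beta chain of the epithelial anchoring laminin, had 36.5 FPKM in the knockdown library and 32.8 FPKM in the control library, from 5883 and 5421 counts. Its CPM ratio was 1.11 (interval 1.07 to 1.15), and after TPM rescaling its log2 ratio was -0.26, still above that scale's median of -0.47. LAMB2 had 6.27 FPKM in the knockdown library and 10.5 FPKM in the control library, 1.68-fold lower (interval 1.59 to 1.77). LAMB1 had 1.27 FPKM in the knockdown library and 2.80 FPKM in the control library, 2.20-fold lower (interval 1.95 to 2.48). Both are the beta chains that join LAMA5 and LAMC1, and both were lower while LAMB3 was not.

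Of the gamma chains, LAMC1, which is part of most laminins, had 3.73 FPKM in the knockdown library and 9.02 FPKM in the control library, from 930 and 2304 counts. It was 2.42-fold lower by CPM (interval 2.24 to 2.61). LAMC3 had 1.72 FPKM in the knockdown library and 3.03 FPKM in the control library, 1.77-fold lower (interval 1.58 to 1.98). Both were below the median CPM ratio of all expressed genes, 0.872. LAMA3, the alpha chain of the anchoring laminin, was far below LAMB3, which had 227 times its FPKM in the knockdown library and 88.3 times in the control library.

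The start regions of 3 laminin genes are printed to show the sequence from which transcription of the members at the ends of the range begins: LAMA2 and LAMC1, which were at least 2-fold lower and are in the table used, and LAMB3, the only expressed member above 0. ITGB4 and ITGA3 are not shown. The sequences are from RefSeq (GRCh38.p14), 250 bases before to 50 after the start, 5′ to 3′ on the gene's own strand. Capitals mark the GC box, GGGCGG on either strand (CCGCCC), the element bound by Sp1.
LAMA2, chr6:128882888-128883187, + strand: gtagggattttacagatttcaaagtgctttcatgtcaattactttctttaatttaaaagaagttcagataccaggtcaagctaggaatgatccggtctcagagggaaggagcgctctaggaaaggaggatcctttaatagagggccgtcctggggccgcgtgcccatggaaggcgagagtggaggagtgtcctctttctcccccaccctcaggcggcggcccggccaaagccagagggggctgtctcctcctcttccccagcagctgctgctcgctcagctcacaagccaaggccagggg
LAMC1, chr1:183023170-183023469, + strand: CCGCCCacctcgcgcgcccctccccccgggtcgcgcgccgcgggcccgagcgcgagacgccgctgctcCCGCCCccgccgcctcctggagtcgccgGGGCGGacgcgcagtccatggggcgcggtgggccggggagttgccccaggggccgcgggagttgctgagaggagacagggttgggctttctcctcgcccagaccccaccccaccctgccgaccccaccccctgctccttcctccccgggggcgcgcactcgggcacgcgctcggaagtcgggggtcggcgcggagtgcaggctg
LAMB3, chr1:209652376-209652675, - strand: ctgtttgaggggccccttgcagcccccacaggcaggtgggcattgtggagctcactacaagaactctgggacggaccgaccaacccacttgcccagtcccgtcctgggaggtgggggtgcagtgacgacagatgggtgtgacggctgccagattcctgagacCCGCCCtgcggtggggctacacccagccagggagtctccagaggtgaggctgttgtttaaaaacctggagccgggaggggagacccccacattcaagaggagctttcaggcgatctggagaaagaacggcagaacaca
The LAMC1 window held 3 GC boxes and 79.0% G and C, the LAMB3 window 1 GC box and 61.3%, and the LAMA2 window 0 and 55.3%.

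Windows were found for 26 of the 38 members, 12 of them expressed; where a gene had several, the one nearest the deposited start was taken. The ITGB1 window, which held 3 GC boxes, lies 47562 bases from the deposited start of ITGB1, and those of the other 11 expressed members at most 194 bases from theirs. Of the 12, 10 held a GC box, against 45.0% of all 35116 windows and 71.3% of the 8314 windows of expressed protein-coding genes. The CCAAT box, CCAAT or ATTGG, was in 0 of the 12, against 34.6% of all windows and 34.5% of those of expressed protein-coding genes. TGANTCA, the AP-1 motif, which reads the same on the other strand, was in 1 of the 12, ITGA5, against 7.71% of all windows and 5.06% of those of expressed protein-coding genes. The TATA box, TATAAA or TTTATA, was in 1 of the 12, ITGA6, against 11.5% of all windows and 5.20% of those of expressed protein-coding genes. The GC box was present in lower members such as LAMC1 and in LAMB3 alike. The letters show only what is in these windows.

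The 21 members under 1 FPKM were mostly lower as well. Of them, 18 had at least 10 counts in the libraries together, and 11 of these 18 had a CPM ratio of 0.5 or less, against 29.5% of 6419 protein-coding genes passing the same filter. Their median CPM ratio was 0.435, against 0.772 for those genes. Named by their counts are 8 of the 21. LAMA1, a laminin chain of the embryo, had 0 counts in the knockdown library and 116 in the control library. With the 0 replaced by 3 counts it was 37.7-fold lower, and the upper bound of its interval, 0.0331, is 30.2-fold lower. ITGA1, a collagen receptor subunit, had 12 counts in the knockdown library and 115 in the control library, a ratio of 0.107 (interval 0.0537 to 0.194), while PELO, whose entry overlaps it on the same strand, had 992 and 976 counts. LAMA4, a chain of vessel and muscle basement membranes, had 53 counts in the knockdown library and 198 in the control library, a ratio of 0.274 (0.199 to 0.373). LAMA1, ITGA1 and LAMA4 were thus, like LAMA2, under 0.3 of the control level in the library where the heart muscle markers were nearly absent. ITGA4, ITGA8 and ITGA11, with at most 41 counts in the control library, were under 0.3 as well, with intervals below 1. The part of heart muscle RNA in any of these values was not tested.

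LAMA3 had 70 counts in the knockdown library and 166 in the control library, a ratio of 0.432 (0.322 to 0.575). ITGA9, a tenascin receptor subunit, had 23 counts in the knockdown library and 54 in the control library, a ratio of 0.437 (0.256 to 0.724). ITGAE, the subunit with which lymphocytes bind E-cadherin, had 96 counts in the knockdown library and 191 in the control library, a ratio of 0.515 (0.399 to 0.662). These 3 lay near or below 0.5. ITGAX, a leukocyte subunit, had 29 counts in the knockdown library and 57 in the control library. ITGA2B, the platelet subunit, had 119 counts in the knockdown library and 137 in the control library, a ratio of 0.891 with an interval that included 1 (0.691 to 1.15).

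The other 13 members had 0 to 17 counts in the knockdown library and 0 to 41 in the control library, 88 and 241 in sum. They were ITGA4, ITGA8, ITGA10, ITGA11, ITGAD, ITGAL, ITGAM, ITGB2, ITGB3, ITGB6, ITGB7, ITGB8 and LAMB4. Of these, 10 had fewer counts in the knockdown library, and for 4 the interval lay below 1. Of 6419 protein-coding genes under 1 FPKM with at least 10 counts, 2655 had an interval below 1, a filter that 3 of the 13 did not pass. The share of those genes with fewer counts was not computed, so the count of 10 has no background beside it. LAMB4 had 0 counts in both libraries, which allows up to 0.116 CPM in the knockdown library and 0.113 CPM in the control library at 3 counts. 

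**Figure D3:**
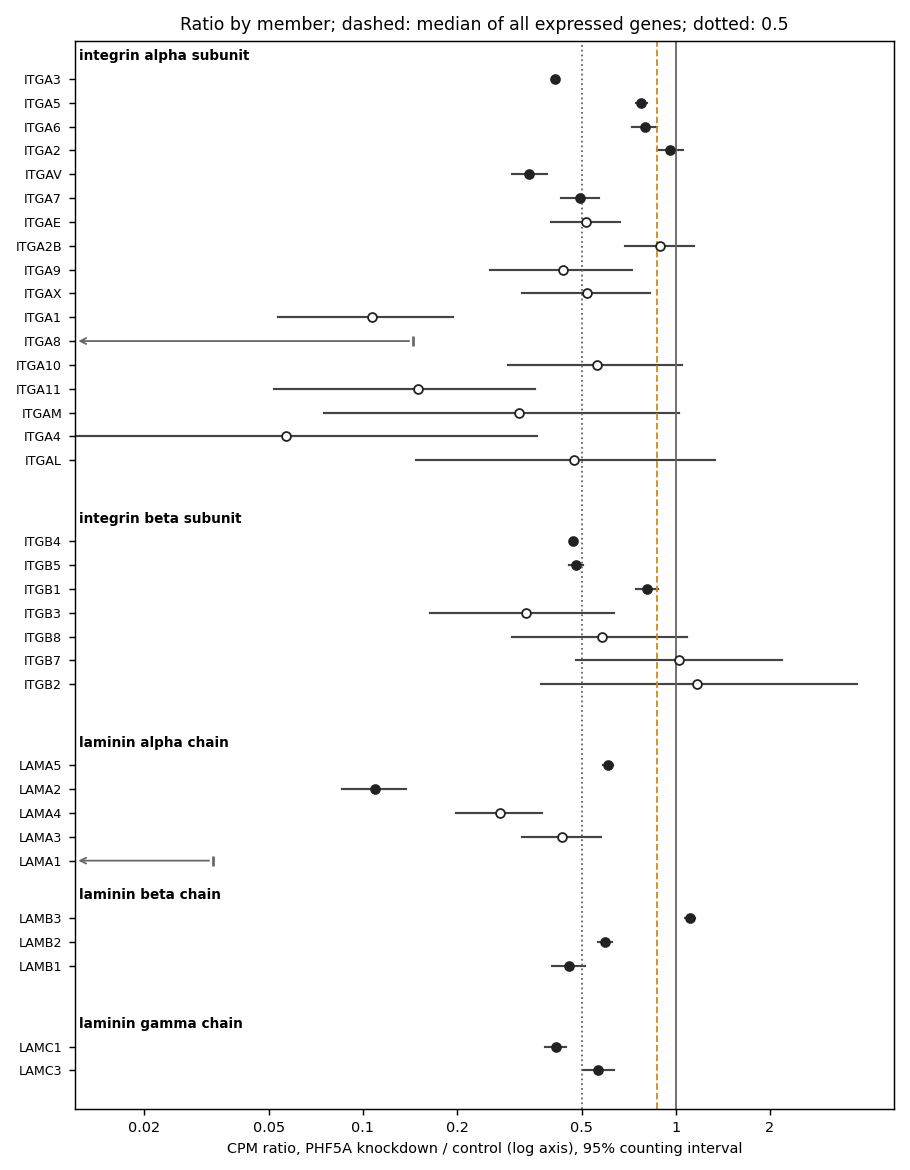
CPM ratio of PHF5A knockdown to control (log axis) for 34 members with at least 10 counts in the libraries together, with 95% exact counting intervals; filled points reached 1 FPKM, and arrows mark members at 0 in the knockdown library, drawn from the upper bound. The dashed line is the median of all expressed genes, 0.872, and the dotted line 0.5; LAMB3 is the only filled point to the right of 1.

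Of 32 adaptors that join integrins to the cell's interior, 25 were expressed and 22 of these had a log2 ratio below 0, against 62.0% of all expressed genes. At least 2-fold lower were 4 of the 25 and 0 were higher, against 6.20% and 2.53% of all expressed genes, with a list median of -0.46 on the log2(FPKM + 1) scale. PXN, the focal adhesion scaffold paxillin, had 18.2 FPKM in the knockdown library and 51.9 FPKM in the control library (log2 ratio -1.46). TNS4, a tensin that binds integrin tails, had 12.5 FPKM in the knockdown library and 36.1 FPKM in the control library (log2 ratio -1.46). VCL, vinculin, had 4.52 FPKM in the knockdown library and 10.8 FPKM in the control library (log2 ratio -1.09). ITGB1BP2, melusin, a muscle protein, had 4 counts in the knockdown library and 121 in the control library, and was low in the same library as the heart muscle markers. ITGB1BP2 and PTK2 reached 1 FPKM in the control library alone, so they could count only as lower. PTK2 had 0.750 FPKM in the knockdown library and 1.31 FPKM in the control library (log2 ratio -0.40). The count of adaptors at least 2-fold lower was 2 after centring on the median and 9 after TPM rescaling.

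Among genes of the hemidesmosome and the tetraspanins that accompany integrins, 1 of 6 expressed was at least 2-fold lower, against 6.20% of all expressed genes, and 0 higher, with a median of -0.11. CD9, a tetraspanin, had 5.99 FPKM in the knockdown library and 13.6 FPKM in the control library (log2 ratio -1.06). PLEC, plectin, which binds the ITGB4 tail to keratins, had 51.6 FPKM in the knockdown library and 78.9 FPKM in the control library (log2 ratio -0.60). CD81 had 55.7 FPKM in the knockdown library and 41.1 FPKM in the control library (log2 ratio 0.43), and CD82 had a log2 ratio of -0.21. This list therefore held genes on either side of the median of all expressed genes. The call of CD9 was lost after centring on the median, upper-quartile scaling or scaling to the protein-coding total, each of which left 0 of the list at least 2-fold lower.

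Other proteins of the basement membrane included 11 expressed genes of 16, all with a log2 ratio below 0, against 62.0% of all expressed genes. Of the 11, 5 reached 2-fold lower, against 6.20% of all expressed genes, and 0 higher, with a list median of -0.83. These 5 reached 1 FPKM in the control library alone, so they could be called only as lower. COL4A2, a chain of the collagen IV network, had 5 counts in the knockdown library and 840 in the control library. COL4A1, its partner chain, had 3 counts in the knockdown library and 544 in the control library, a ratio of 0.00565 (interval 0.00116 to 0.0166). NID2, a nidogen that links laminin to collagen IV, had 0 counts in the knockdown library and 367 in the control library, and NID1, named after its value was seen, had 1 and 199. SPARC, a collagen-binding matrix protein, had 16 counts in the knockdown library and 621 in the control library. All 5 had at most 16 counts in the knockdown library, where the heart muscle markers were also low. The 9 fibroblast markers summed to 877 counts in the knockdown library and 2893 in the control library. They were not alike: COL3A1 had 31 and 959 and COL1A1 786 and 1362, while PDGFRB had 42 and 44 and DCN 9 and 8. With a minimum of 5 FPKM the list's count was 0. The share of heart muscle or fibroblast RNA in these values was not tested.

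Laminin receptors other than integrins included 5 expressed genes of 6, 2 of them lower by 2-fold or more, against 6.20% of all expressed genes, and 0 higher, with a median of -0.78. DAG1, the dystroglycan precursor, had 3.67 FPKM in the knockdown library and 9.39 FPKM in the control library (log2 ratio -1.15). RPSA, a ribosomal protein also described as a laminin receptor, had 210 FPKM in the knockdown library and 467 FPKM in the control library (log2 ratio -1.15), and is uncertain because it has many processed pseudogenes. SDC1, syndecan, had 2.79 FPKM in the knockdown library and 5.53 FPKM in the control library (log2 ratio -0.78). BCAM, a receptor of LAMA5, had a log2 ratio of -0.20. After centring on the median, upper-quartile scaling or scaling to the protein-coding total, 1 of the 5 was at least 2-fold lower.

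Ligands of integrins other than laminins included 10 expressed genes, 8 with a log2 ratio below 0, against 62.0% of all expressed genes. Of the 10, 3 were lower by 2-fold or more, against 6.20% of all expressed genes, and 0 higher, with a list median of -0.64. MFGE8, a ligand of ITGAV integrins, had 4.13 FPKM in the knockdown library and 11.7 FPKM in the control library (log2 ratio -1.31). LTBP1, which holds latent TGF-beta in the matrix, had 0.284 FPKM in the knockdown library and 1.63 FPKM in the control library (log2 ratio -1.03). COL3A1, which is also on the fibroblast list, had 31 counts in the knockdown library and 959 in the control library. LTBP1, COL3A1 and FN1 reached 1 FPKM in the control library alone, so they could count only as lower. FN1 had 0.367 FPKM in the knockdown library and 1.31 FPKM in the control library (log2 ratio -0.76). CYR61, a secreted ligand of ITGAV integrins, was the highest of the 10 expressed genes by ratio, with 17.3 FPKM in the knockdown library and 9.17 FPKM in the control library (log2 ratio 0.85). The count of 3 was 1 with a minimum of 5 FPKM, 2 after centring on the median and 5 after TPM rescaling. The entry of TGFB1 is broken in the deposited table and was left out.

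**Figure D4:**
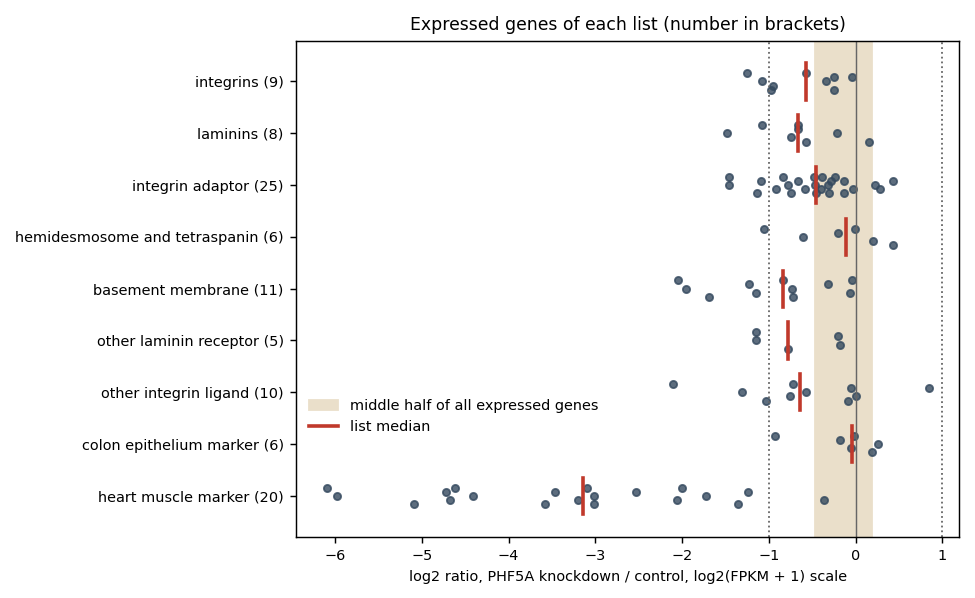
Log2 ratio of PHF5A knockdown to control on the log2(FPKM + 1) scale for each expressed gene (points) of the integrins, the laminins and 7 other lists, with the list median as a red bar and the interquartile range of all expressed genes, from -0.47 to 0.19, shaded. The medians of integrins (-0.57) and laminins (-0.66) lie left of the shaded band, and the heart muscle markers lie far to the left with a median of -3.14.

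Markers of other cell types were set beside the members for the same libraries. Of the 20 heart muscle markers, 19 were at least 2-fold lower, TNNI3 being the exception with 229 counts in the knockdown library and 334 in the control library. Fibroblast markers, 9 in number, summed to 877 counts in the knockdown library and 2893 in the control library, with 2 expressed. COL1A1 held 786 and 1362 of these. COL3A1 had 31 counts in the knockdown library and 959 in the control library, COL1A2 7 and 352, PDGFRA 2 and 93, and LUM 0 and 60. POSTN had 0 and 15, PDGFRB 42 and 44 and DCN 9 and 8, and FAP had 0 in both. The 8 endothelial markers summed to 171 and 354 counts and none was expressed, and the 8 leukocyte markers summed to 413 and 562 counts, of which CD68 held most. The 12 colon epithelium markers summed to 354590 counts in the knockdown library and 371861 in the control library, and the 6 expressed had a median log2 ratio of -0.04, from -0.93 for CDX2 to 0.26 for EPCAM. The 38 members together summed to 53756 counts in the knockdown library and 103223 in the control library, 0.208% and 0.389% of each library.

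Integrin and laminin genes are long and have many exons. By the transcript with the most exons in GENCODE release 29, the 17 expressed members had 15 to 80 exons, with a median of 28, against a median of 9 for 7677 expressed protein-coding genes. Of the members, 15 had 20 or more exons, with a median log2 ratio of -0.66 and 4 at least 2-fold lower. The 1143 protein-coding genes with 20 or more exons had a median of -0.26, and 7.0% of them were at least 2-fold lower. The other 2 members, ITGB5 and ITGB1, had 15 and 16 exons and log2 ratios of -0.98 and -0.25. LAMB3, with a log2 ratio of 0.15, had 23 exons, and LAMC1, with -1.08, had 28.

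The members were also set beside genes of like level. Protein-coding genes with a mean of 1 to 5 FPKM over the libraries had a median CPM ratio of 0.843, and the 8 members among them 0.531. Those with 5 to 20 FPKM had 0.888, and the 6 members among them 0.602. Those with 20 FPKM or more had 0.967, and the 3 members among them, ITGB4, ITGA3 and LAMB3, had 0.470. In each of the 3 ranges the members' median was below that of the protein-coding genes, as a description of these libraries. Of the 8 members at 1 to 5 FPKM, LAMA2, ITGAV and ITGA7 passed the filter only through the control library. These 3 could only be lower, with CPM ratios of 0.109, 0.341 and 0.496, and they pull down the median of that range.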

How the data were processed

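Per the labels' protocols, Trizol was used for RNA and a stranded kit for libraries of total RNA. HISAT2 2.0.4 and Cuffdiff were used with GRCh38, per the submitters' processing notes; annotation release and strand setting: not given in the sources used here. Per the file headers, the deposited table gives a count and an FPKM per gene and library. The deposited FPKM equals the count divided by 1 fixed gene length and the library total, the lengths implied by the 2 libraries differing by at most 0.0241%. Of 50869 lines, 2 were left out because 1 entry was broken over them. Coordinates are those of the table, and 35 of the 38 loci equal those of GENCODE release 29.

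The log2 ratio used a pseudocount of 1, the expressed filter 1 FPKM in the higher library, and calls a ratio of 2-fold by size alone. For CPM ratios, the 95% interval is Clopper-Pearson, conditional on the sum of both counts; where a library had 0 counts, 3 were used as a floor. Reads are not independent molecules, so both cover counting error only.

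Members with 1 FPKM or 50 counts in the higher library are named, and up to 4 expressed genes of each other list with the largest absolute log2 ratio. The members and lists were chosen with earlier results of these data known. The values of 1 member are not reported singly here; it stays in the counts, sums and medians. The procedure was run on simulated counts that held counting error only, the error the intervals assume. It cannot check for variation between cultures. Tables were computed in Python 3.11.15 with pandas 2.3.3, intervals with scipy 1.17.1, medians with numpy 2.4.6 and figures with matplotlib 3.10.9. As alternatives, the pseudocount was 0.1 or 0.5, the filter was dropped or raised to 5 FPKM, and median centring, upper-quartile scaling, TPM rescaling, scaling to the protein-coding total, CPM with a prior of 0.5 and a 1.5-fold threshold were used.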

Additional observations from a re-analysis of the deposited data

How the results depend on the processing

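No paired analysis was possible because each group held a single library. The number of members at least 2-fold lower was 4; it was 7 with a pseudocount of 0.1, 8 by CPM with a prior of 0.5, 9 after TPM rescaling, 9 at a 1.5-fold threshold, and 2 each, ITGA3 and LAMA2, after median centring, upper-quartile scaling and scaling to the protein-coding total. No member was at least 2-fold higher in any of these settings. The median log2 ratio of the members, -0.66, was -0.79 with a pseudocount of 0.1, -0.82 by CPM, -0.24 with no filter, -0.51 after median centring, -0.50 after upper-quartile scaling, -0.97 after TPM rescaling and -0.52 on the protein-coding total. TPM rescaling moved the median of all expressed genes by -0.32, upper-quartile scaling by 0.15 and the protein-coding total by 0.13. Relative to that median the members lay at -0.51 as deposited, -0.50 after each of these 3 scalings -0.62 by CPM and -0.20 with no filter. Genes of the 5 other lists at least 2-fold lower numbered 15; they were 7 with a minimum of 5 FPKM, 9 after median centring, 27 after TPM rescaling and 28 at 1.5-fold, and 1 was higher after upper-quartile scaling and at 1.5-fold, against 0 as deposited. Of single members whose counting interval excluded 1, LAMB3 changed sign after TPM rescaling (-0.26), and ITGAX (0.026), ITGA11 (0.0050) and ITGA4 (0.072) did so after median centring, which added 0.15 to every log2 ratio. ITGAX, ITGA11 and ITGA4 lay far under 1 FPKM, where adding 1 to each FPKM shrinks the log2 ratio. Their CPM ratios were 0.522, 0.150 and 0.0570, all below the median of all expressed genes, 0.872. Centring also changed the sign of 8 members whose interval included 1, ITGA2 among them. Of 259 values of single members under alternatives, 176 were classed as within the margin of the counting interval. Another 79 moved by more, and 4 changed sign with an interval that excluded 1. LAMA1, ITGA8, ITGAD and ITGB6, at 0 counts in the knockdown library, had no finite margin and fell among the 176 whatever their value. The LAMA1 log2 ratio was -0.29 as deposited and -7.83 by CPM with a prior of 0.5. Under 1 FPKM, depth limits the ratios, since the members had at most 198 counts there.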

Other observations

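Entries named like integrins but outside the families were also counted, and are given as values chosen after they were seen. ITGBL1, a secreted protein with integrin-like repeats, had 17 counts in the knockdown library and 0 in the control library. ITGB3BP, a centromere protein that binds the ITGB3 tail, had 12 counts in the knockdown library and 45 in the control library, a CPM ratio of 0.273 (interval 0.132 to 0.526).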
